A study of Mus musculus with 6 samples.

Results

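The Cables family of mouse has 2 genes, Cables1 and Cables2, and 7 further genes encode proteins reported to bind the Cables proteins or to work with them: Cdk5, Cdk5r1, Abl1, Abl2, Trp73, Tdrd7 and Wee1. These 9 genes were chosen by symbol from the 49585 gene rows of a deposited RNA-seq count table. All 9 are reported whatever their values, but the choice was made with earlier results of these data known. The libraries came from C57BL/6 epiblast-like cells (EpiLCs), which are derived in culture from embryonic stem cells (ESCs) and resemble the epiblast soon after implantation. The groups were Cables2-deficient cells (Cables2-/-, called KO here) and wild-type cells (WT), with 3 libraries each. In both groups ESCs kept with LIF, CHIR99021 and PD0325901 were plated on fibronectin with activin A (20 ng/mL), bFGF (12 ng/mL) and KSR (1%), and RNA was taken on day 2. The labels name neither the deleted exons nor the number of ESC clones behind a group, and they do not state whether the libraries are separate cultures. The p-values therefore measure no more than the spread among these libraries, and that spread may be technical.

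Cables proteins are adaptors with a cyclin-like domain. The founding protein, Cables1, was described as a substrate of both Cdk5, the kinase that p35 (the product of Cdk5r1) activates in neurons, and the tyrosine kinase Abl, and as a protein that brings these kinases together. In human cells Cables1 is also known to favour the inhibitory tyrosine phosphorylation of Cdk2 by Wee1 and to bind p53 and p73, while Tdrd7, a tudor-domain protein of RNA granules, was found as a binding partner of Cables. Cables2 is the less studied paralog and shares the cyclin-like domain.

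KO libraries held 4442618 to 5206717 counts and WT libraries 4234788 to 4848967. At these unscaled totals, 3 counts correspond to 0.576 to 0.708 CPM, the counts scaled to library size. All other CPM given here also use the TMM factors described below. Mitochondrially encoded transcripts made up 0.204% to 0.243% of KO counts and 0.142% to 0.152% of WT counts, without overlap. Of the EpiLC markers all 8 were measured, with a summed level of 5692 to 5841 CPM in KO and 5300 to 5515 CPM in WT. Fgf5 (log2 fold change 1.17), Pou3f1 (0.88) and Tdgf1 (0.36) were called higher in KO, Dnmt3a was called lower (-0.17), and 4 were not called. Of 9 naive ESC markers 8 were measured, and their sums were 183 to 191 CPM in KO and 301 to 356 CPM in WT. Nanog (-1.68), Klf4 (-1.01), Tfcp2l1 (-0.85), Esrrb (-0.84) and Zfp42 (-0.39) were called lower in KO. Klf2 was called higher (0.61), and 2 were not called. The called share of this list was 75.0%, beside 17.3% of all tested genes. DESeq2 called 4 lower and 1 higher. Sums of the primitive endoderm (11.5 to 19.0 CPM in KO, 17.6 to 25.0 in WT), trophoblast (26.4 to 31.4 in KO, 20.8 to 31.7 in WT) and neural markers (36.8 to 42.4 in KO, 36.9 to 40.8 in WT) overlapped between the groups. Within these lists the neural factor Neurod1 was called higher in KO, with 32, 29 and 21 counts in KO and 3, 8 and 8 in WT (log2 fold change 1.94, adjusted p = 0.000128). The other 3 tested neural markers had log2 fold changes between -0.55 and -0.04 and were not called. The endoderm factor Gata4 was called lower, with 9, 3 and 9 counts in KO and 15, 18 and 13 in WT (-1.25, adjusted p = 0.0393). DESeq2 called neither Neurod1 nor Gata4. The fibroblast sum was 18.3 to 24.7 CPM in KO and 18.1 to 18.5 CPM in WT, with Col3a1, Lum and Postn at no more than 3 counts in any library. Whether these marker levels or the mitochondrial share have a part in any result below was not tested. In bulk RNA, fewer cells with a transcript and less of it per cell cannot be told apart.

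Among the 9 genes, 1 was higher in KO (Trp73) and 2 were lower (Abl1 and the deleted Cables2), 5 were tested without a call, and Tdrd7 had too few counts for the test. The 3 calls among 8 tested genes stand beside a background of 17.3% of all 11594 tested genes called (8.13% higher and 9.13% lower in KO). The 3 include the deleted Cables2, whose fall was set by the design. Cables2 also enters the medians over the 8 genes given below. Calls are adjusted p below 0.05 in edgeR's quasi-likelihood test, with Benjamini-Hochberg adjustment over all tested genes. In the authors' deposited table, 8.75% of 17987 genes with a count had an FDR-corrected p below 0.05, a threshold applied here, among them Cables2 and Trp73. The median log2 fold change, KO over WT, was -0.03 over the 8 genes and 0.01 over all tested genes. The median size of the change, regardless of sign, was 0.22 over the 8 genes and 0.17 over all tested genes.

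**Figure D1:**
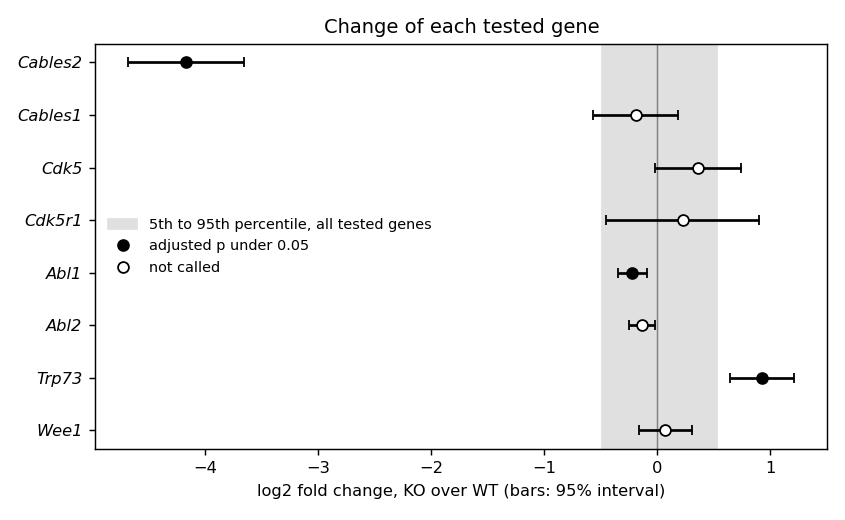
Log2 fold change of each tested gene, KO over WT, with its 95% interval from edgeR's fit on 3 KO and 3 WT libraries. Cables2 lies at -4.16, Trp73 at 0.93 and Abl1 at -0.22 (filled points, adjusted p under 0.05), and the grey band from -0.49 to 0.53 spans the 5th to 95th percentile of all tested genes.

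Cables2 (ENSMUSG00000038990) is on the minus strand of chromosome 2, at chr2:180258540-180273496 in mm10. Its RefSeq promoter window (GRCm38.p6, 250 bases before to 50 after the start, chr2:180273416-180273715, minus strand) is shown because it belongs to the gene that was deleted and holds a repeated pattern. Capitals mark CCAAT, the letters bound by the factor NF-Y, and ATTTGCAT, the octamer bound by POU factors such as Oct4.

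Cables2: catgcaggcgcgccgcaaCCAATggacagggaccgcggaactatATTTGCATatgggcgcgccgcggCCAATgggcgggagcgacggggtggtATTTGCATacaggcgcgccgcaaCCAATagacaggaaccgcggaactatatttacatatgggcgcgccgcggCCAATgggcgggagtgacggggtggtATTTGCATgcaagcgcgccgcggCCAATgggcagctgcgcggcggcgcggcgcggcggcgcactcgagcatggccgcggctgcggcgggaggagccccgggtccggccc

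Searched on both strands, CCAAT occurred 5 times, first at 232, 183, 134, 85 and 36 bases before the start, so that each copy lay 49 bases from the next. The octamer occurred 3 times, and no copy overlapped a CCAAT. At least 1 CCAAT was found in 37.4% of 32851 RefSeq promoter windows of the same length, and 3 or more in 3.37%. At least 1 ATTTGCAT was found in 1.74% of the windows, and 3 or more in 0.012%. An Abl1 window held 1 ATTTGCAT as well. The octamers of Cables2 lie within the same 49-base repeat as the CCAAT copies. The copies are therefore not independent, and the shares for 3 or more do not measure how unusual the pattern is. The octamer was added to the search after the sequence had been seen. These matches describe the letters only.

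Cables2 itself was counted 6, 11 and 4 times in KO libraries 04, 05 and 06, against 114, 111 and 121 times in WT libraries 01, 02 and 03. In CPM this was 1.17, 2.09 and 0.904 in KO, against 23.9, 24.8 and 28.9 in WT. Every KO library was far below every WT library, with the mean at 5.36% of the WT mean, and the few KO reads cannot be placed on exons from a count per gene. The means were 1.39 ± 0.621 CPM in KO and 25.8 ± 2.65 CPM in WT (SD, n = 3 each). The log2 fold change was -4.16 (SE 0.26, adjusted p = 1.5e-23). In the authors' deposited table the signed fold is -17.9. The next gene on the chromosome, Rps21, a ribosomal protein gene on the opposite strand whose end lies 94 bases from that of Cables2, had 873, 901 and 748 counts in KO and 1880, 1779 and 1680 in WT. Its log2 fold change was -1.22 (SE 0.05, adjusted p = 2.17e-32).

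Cables1 (ENSMUSG00000040957, chr18:11839220-11945627, plus strand), the paralog for which most Cables partners were described, had 67, 78 and 42 counts in KO and 77, 52 and 64 in WT. This is 13.0, 14.8 and 9.50 CPM in KO, against 16.1, 11.6 and 15.3 CPM in WT. The groups overlapped, and the means were 12.4 ± 2.70 CPM in KO and 14.3 ± 2.40 CPM in WT (SD, n = 3 each). The log2 fold change was -0.19 (SE 0.19, adjusted p = 0.547) with a 95% interval from -0.57 to 0.18, so a rise of Cables1 above 0.18 lies outside that interval, while a fall of up to 0.57 lies inside it. A predicted antisense gene, Gm6277, shares 1314 exon bases with Cables1 and had no more than 1 count in any library.

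Levels of the paralogs were compared per kilobase of exon. The log2 ratio of Cables2 to Cables1 was -3.74, -3.09 and -3.65 in KO libraries, against 0.31, 0.83 and 0.66 in WT libraries. Cables2 was therefore the lower paralog in all 3 KO libraries and the higher one in all 3 WT libraries. The mean ratios were -3.49 ± 0.36 in KO and 0.60 ± 0.27 in WT, a difference of -4.09. The summed level of both paralogs was 3.65, 4.31 and 2.67 CPM per kilobase in KO, against 9.40, 8.42 and 10.3 CPM per kilobase in WT. All KO sums lay below all WT sums, with means of 3.54 ± 0.825 in KO and 9.36 ± 0.919 in WT (SD, n = 3 each). Since Cables2 is the deleted gene, its ratio to Cables1 and the paralog sum had to fall, and they are given as a description.

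**Figure D2:**
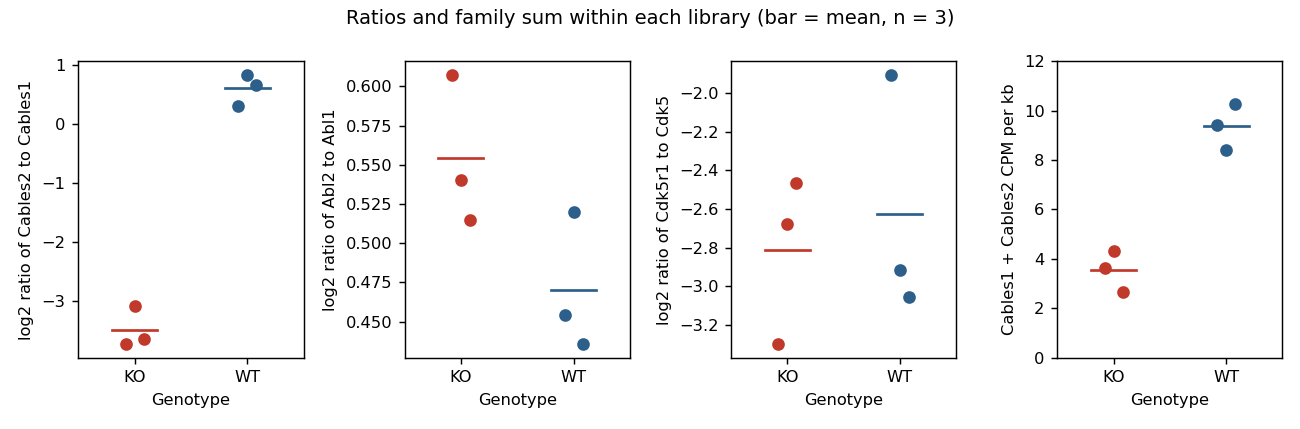
Ratios within each library, from CPM per kilobase of exon on a log2 scale, and the summed level of Cables1 and Cables2 in CPM per kilobase. Points are libraries and bars are means of 3: the Cables2 to Cables1 ratio averaged -3.49 in KO and 0.60 in WT, the Abl2 to Abl1 ratio 0.55 in KO and 0.47 in WT, the Cdk5r1 to Cdk5 ratio -2.81 in KO and -2.63 in WT, and the paralog sum 3.54 in KO and 9.36 in WT.

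Per kilobase of exon, the KO order ran from Abl2 (18.9 CPM per kilobase), Abl1 (12.8), Wee1 (10.6), Cdk5 (7.04) and Trp73 (5.79) to Cables1 (3.24), Cdk5r1 (1.03), Tdrd7 (0.593) and Cables2 (0.302), with no overlap between the libraries of neighbours. In WT the order was Abl2 (20.7 CPM per kilobase), Abl1 (14.9), Wee1 (10.1), Cables2 (5.62), Cdk5 (5.53), Cables1 (3.73), Trp73 (3.04), Cdk5r1 (0.873) and Tdrd7 (0.313). Within WT, Cables2 and Cdk5, Cdk5 and Cables1, and Cables1 and Trp73 were neighbours whose libraries overlapped. Cables2 thus stood last in KO and next after Wee1 in WT, and Trp73 stood above Cables1 in KO and below it in WT. The order of Abl2 and Abl1 holds for the union of exons and would turn in both groups with the length of the longest transcript. With that length the WT means of Cables2 and Cdk5 would also change places, so that Cdk5 would follow Wee1 there. The place of Wee1 is uncertain, because the table's RPKM columns, which were looked at but not analysed here, appeared to hold more exon reads for Wee1 than its counts in both groups, so that its level per kilobase may be too low.

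**Figure D3:**
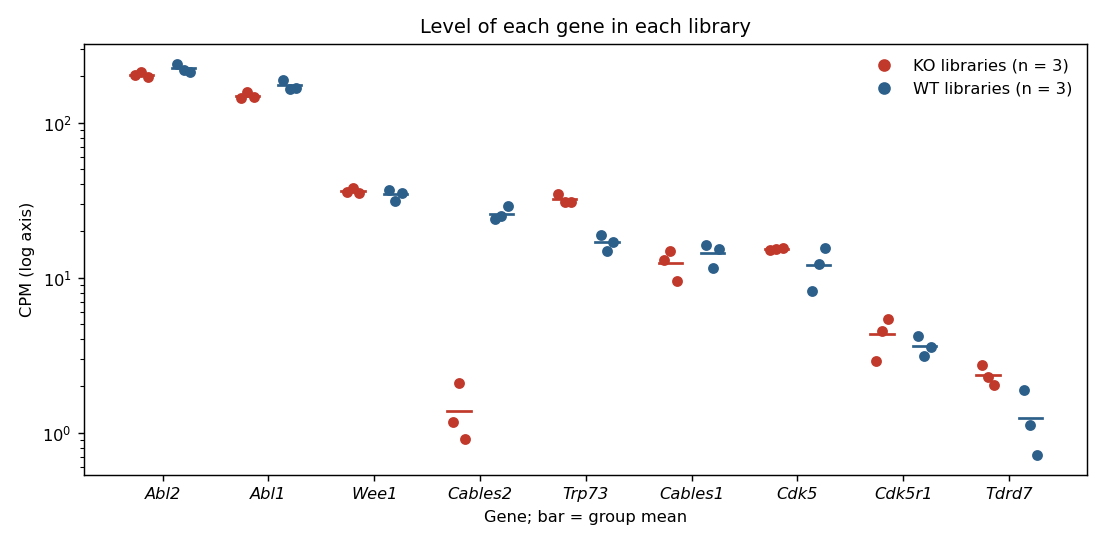
CPM of each gene in each library on a log axis, with KO libraries left of WT libraries and a bar at each group mean (n = 3 each). The groups are apart for the deleted Cables2 and for Abl1, lower in KO, and for Trp73 and Tdrd7, higher in KO, and overlap for the other 5 genes. Over all tested genes the groups were apart for 31.6%.

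Cdk5 (ENSMUSG00000028969, chr5:24418241-24423530, minus strand), the kinase that gives Cables its name, had 77, 80 and 69 counts in KO and 39, 55 and 65 in WT. Its CPM were 15.0, 15.2 and 15.6 in KO, against 8.17, 12.3 and 15.5 in WT. The KO libraries were close together, while WT library 01 was low and WT library 03 reached the KO level. The means were 15.3 ± 0.314 CPM in KO and 12.0 ± 3.68 CPM in WT (SD, n = 3 each), and the log2 fold change of 0.36 (SE 0.19, adjusted p = 0.197) had a 95% interval from -0.02 to 0.74. Without WT library 01 it was 0.14 (adjusted p = 0.731), and without WT library 03 it was 0.58 (adjusted p = 0.0564).

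Cdk5r1 (ENSMUSG00000048895, chr11:80477023-80481184, plus strand), the activator p35, was near the lower limit of the test, with 15, 24 and 24 counts in KO and 20, 14 and 15 in WT. The groups overlapped at means of 4.30 ± 1.27 CPM in KO and 3.63 ± 0.533 CPM in WT (SD, n = 3 each). Its log2 fold change was 0.23 (SE 0.34, adjusted p = 0.719), and the 95% interval from -0.45 to 0.90 leaves room for sizeable changes either way. The log2 ratio of Cdk5r1 to Cdk5 was -3.30, -2.68 and -2.46 in KO and -1.90, -2.91 and -3.06 in WT. These ratios overlapped, with means of -2.81 ± 0.43 in KO and -2.63 ± 0.63 in WT (exact permutation test, two-sided p = 0.7). The sign of their difference of -0.19 turned without KO library 04 (0.05) and without WT library 01 (0.17). The second activator gene, Cdk5r2, had at most 1 count in any library.

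Of 16 measured genes among the Cdk5 activators, binding proteins and PCTAIRE kinases, 0 were higher in KO, 3 were lower and 13 were not called, with a median log2 fold change of -0.05. The 3 were Cdk16, a PCTAIRE kinase (-0.30, SE 0.08, adjusted p = 0.0024), its relative Cdk17 (-0.24, SE 0.09, adjusted p = 0.0375), and Ccni, a cyclin known to activate Cdk5 (-0.17, SE 0.05, adjusted p = 0.0219). For higher genes the count was 0 in edgeR's and DESeq2's tests. At an unadjusted edgeR p under 0.05, 0 of the 16 were higher and 4 were lower, beside 29.4% of all tested genes in either direction. The called share of this list, 18.8%, was near the 17.3% of all tested genes. Leaving out KO library 06 ended all 3 calls, with adjusted p of 0.0540 for Cdk16, 0.0599 for Cdk17 and 0.0529 for Ccni. The call of Cdk17 also ended without KO library 05, WT library 02 or WT library 03 (adjusted p 0.0516 to 0.223) and in DESeq2 (adjusted p = 0.140), and that of Ccni without KO library 04, WT library 01 or WT library 03 (adjusted p 0.0604 to 0.0988). Under other scalings Cdk17 had an adjusted p of 0.0521 (upper-quartile factors) and 0.0553 (library size without factors).

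Abl1 (ENSMUSG00000026842, chr2:31688376-31804227, plus strand) and Abl2 (ENSMUSG00000026596, chr1:156558786-156649568, plus strand) encode the 2 Abl tyrosine kinases. Abl1 had 735, 826 and 650 counts in KO and 898, 733 and 705 in WT, which is 143, 157 and 147 CPM in KO against 188, 164 and 168 CPM in WT. All KO libraries were below all WT libraries, as for 16.0% of all tested genes, and WT library 01 was the highest. The means were 149 ± 7.07 CPM in KO and 173 ± 13.0 CPM in WT (SD, n = 3 each), and the log2 fold change was -0.22 (SE 0.06, 95% interval -0.35 to -0.09, adjusted p = 0.00858). The call ended without WT library 01 (-0.16, adjusted p = 0.130) and without KO library 04 (-0.19, adjusted p = 0.0587). The authors' deposited table gives an FDR-corrected p of 0.0810 for Abl1. The antisense gene Gm13427 shares 94 exon bases with Abl1 and had 0 counts in all libraries.

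Abl2 had 1043, 1119 and 865 counts in KO and 1146, 979 and 888 in WT, or 203, 212 and 196 CPM in KO against 240, 219 and 212 CPM in WT. The groups met at KO library 05 and WT library 03. The means were 204 ± 8.42 CPM in KO and 224 ± 14.7 CPM in WT (SD, n = 3 each), and the log2 fold change of -0.13 (SE 0.06, 95% interval -0.25 to -0.02) did not pass the adjustment (adjusted p = 0.101). The interval is that of a single gene without adjustment. Per kilobase of exon, the log2 ratio of Abl2 to Abl1 was 0.61, 0.54 and 0.51 in KO and 0.45, 0.52 and 0.44 in WT. By this length Abl2 was the higher kinase in every library, and the ratios of KO library 06 and WT library 02 overlapped. That order depends on the length used. The union of exons is 11596 bases for Abl1 and 10800 for Abl2, but the longest transcripts are 6327 and 10151 bases. With the longest transcripts Abl1 would be the higher kinase in every library. Means were 0.55 ± 0.05 in KO and 0.47 ± 0.04 in WT, a difference of 0.08 (exact permutation test, two-sided p = 0.2, where 3 against 3 libraries allow no p below 0.1).

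Among the Abl adaptors, inhibitors and cytoskeletal substrates, with Abl1 and Abl2 counted, 22 of 24 genes were measured, 1 was higher, 2 were lower and 19 were not called, with a median log2 fold change of -0.03. The called share was 13.6%, beside 17.3% of all tested genes. The higher gene was Baiap2, which encodes IRSp53, a membrane-curving scaffold that works with the WAVE complex. Baiap2 had 82, 95 and 61 counts in KO and 63, 32 and 30 in WT, with means of 15.9 ± 2.12 CPM in KO and 9.17 ± 3.49 CPM in WT (SD, n = 3 each) and a log2 fold change of 0.79 (SE 0.20, adjusted p = 0.00254). Beside Abl1 the lower gene was Cyfip1, a subunit of the WAVE complex (-0.20, SE 0.07, adjusted p = 0.0266), whose call ended without KO library 05, KO library 06, WT library 02 or WT library 03 (adjusted p 0.0655 to 0.104) and in DESeq2 (adjusted p = 0.0861). The adaptors Crk, Crkl, Nck1 and Nck2 and the interactors Abi1 and Abi2 had log2 fold changes between -0.05 and 0.14 and were not called.

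Trp73 (ENSMUSG00000029026, chr4:154056253-154140208, minus strand) encodes p73, a transcription factor of the p53 family. The gene is known to be read from an upstream promoter, which gives forms with the transactivation domain, and from an internal promoter, which gives N-terminally truncated forms. The RefSeq windows of both starts are shown because Trp73 was the 1 gene of the 9 that was called higher in KO (GRCm38.p6, minus strand, chr4:154097124-154097423 for the internal and chr4:154139826-154140125 for the upstream start). Capitals mark a 20-base match to the consensus of p53 family binding, 2 decamers without a spacer, with 2 mismatches allowed.

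Trp73 internal: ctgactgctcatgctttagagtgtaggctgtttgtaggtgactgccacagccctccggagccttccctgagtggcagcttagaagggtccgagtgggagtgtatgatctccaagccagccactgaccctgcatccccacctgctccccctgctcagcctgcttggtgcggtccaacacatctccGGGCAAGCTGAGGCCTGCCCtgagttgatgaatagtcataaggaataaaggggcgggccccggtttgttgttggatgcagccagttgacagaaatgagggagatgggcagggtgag

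Trp73 upstream: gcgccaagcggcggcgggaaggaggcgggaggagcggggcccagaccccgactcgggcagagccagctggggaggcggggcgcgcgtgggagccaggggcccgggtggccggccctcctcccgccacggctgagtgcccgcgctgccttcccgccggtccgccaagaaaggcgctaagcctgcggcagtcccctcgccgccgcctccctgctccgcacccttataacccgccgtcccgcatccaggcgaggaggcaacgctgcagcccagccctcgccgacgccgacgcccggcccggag

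The match ran from 66 to 47 bases before the internal start, and the upstream window held no match. The decamer half-site of the same consensus, searched without mismatches, was in neither Trp73 window and was found in 8.36% of all windows. Such a match was found in 0.798% of the 32851 windows, and this search, over both strands, was added after the sequence had been seen. Counts per gene do not tell from which start the Trp73 reads came. No match was found in the windows of Cables2, Abl1, Abl2 and Tdrd7, the other genes with a RefSeq entry (5 of 9 in all).

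Trp73 was counted 179, 161 and 136 times in KO and 90, 66 and 71 times in WT, or 34.8, 30.6 and 30.7 CPM in KO against 18.9, 14.7 and 16.9 CPM in WT. Every KO library was above every WT library, as for 15.6% of all tested genes, and the KO mean was 190% of the WT mean. The means were 32.0 ± 2.42 CPM in KO and 16.8 ± 2.06 CPM in WT (SD, n = 3 each). The log2 fold change was 0.93 (SE 0.14, 95% interval 0.64 to 1.21, adjusted p = 3.96e-07), and it lay between 0.83 and 1.02 in 14 alternative fits, with adjusted p of at most 5.43e-05. In the authors' deposited table the signed fold is 1.90 and the FDR-corrected p 9.99e-11. The antisense gene Trp73os shares 280 exon bases with Trp73 and had 0 counts in all libraries.

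Of 14 measured genes among the p53 family and the regulators of p73, 4 were higher (Trp73 included), 1 was lower and 9 were not called, with a median log2 fold change of 0.02. The called share was 35.7%, beside 17.3% of all tested genes, and the list was chosen with earlier results known. Mdm2, the ubiquitin ligase that restrains p53 and p73, had 988, 975 and 885 counts in KO and 510, 475 and 459 in WT, with a log2 fold change of 0.84 (SE 0.06, adjusted p = 2.1e-18). Ppp1r13b, which encodes ASPP1, a protein that stimulates p53 family binding to pro-apoptotic genes, averaged 19.8 ± 2.28 CPM in KO and 13.1 ± 2.97 CPM in WT (0.60, SE 0.17, adjusted p = 0.00836). The call of Ppp1r13b ended without WT library 01 (0.42, adjusted p = 0.135) and in DESeq2 (adjusted p = 0.0808). Trp53 itself had a log2 fold change of 0.16 (SE 0.06, adjusted p = 0.0404), and this call ended whichever library was left out (adjusted p 0.0506 to 0.198), with no count filter (adjusted p = 0.0665) and in DESeq2 (adjusted p = 0.123). Rassf1, a tumour suppressor scaffold, averaged 6.78 ± 1.98 CPM in KO and 11.4 ± 2.95 CPM in WT (-0.77, SE 0.23, adjusted p = 0.0121), a call that ended without KO library 04 (adjusted p = 0.120) or WT library 01 (adjusted p = 0.149) and in DESeq2 (adjusted p = 0.109). Trp63 had at most 1 count in any library, and the p73 ligase Itch, the coactivator Yap1 and Mdm4 were not called (-0.17, -0.03 and -0.03).

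Tdrd7 (ENSMUSG00000035517, chr4:45965334-46034761, plus strand) was the most weakly read of the partners, with 14, 12 and 9 counts in KO and 9, 5 and 3 in WT. Its CPM were 2.72, 2.28 and 2.03 in KO, against 1.89, 1.12 and 0.716 in WT. The KO libraries were above the WT libraries, as for 15.6% of all tested genes. The means were 2.35 ± 0.350 CPM in KO and 1.24 ± 0.594 CPM in WT (SD, n = 3 each), but the counts were below the filter of the test. With no filter the log2 fold change was 0.89 (SE 0.53, edgeR adjusted p = 0.351). In the authors' deposited table the signed fold is 1.85 with an FDR-corrected p of 0.649. A difference was thus not detected at these few counts. Of 13 measured genes of the tudor-domain family, 1 was higher and 1 lower, with a median log2 fold change of 0.02 and a called share of 15.4%, beside 17.3% of all tested genes. Snd1, a tudor and nuclease-domain protein of RNA metabolism, had 1149, 1299 and 1099 counts in KO and 1652, 1456 and 1396 in WT (log2 fold change -0.48, SE 0.05, adjusted p = 2.4e-11). Tdrd5, a germline protein of the transposon-silencing pathway, had 148, 154 and 108 counts in KO and 101, 84 and 81 in WT (0.48, SE 0.14, adjusted p = 0.0106), and its call ended without KO library 04, KO library 05 or WT library 02 (adjusted p 0.0532 to 0.0593) and in DESeq2 (adjusted p = 0.0799).

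Wee1 (ENSMUSG00000031016, chr7:110122046-110143286, plus strand) encodes the kinase that places the inhibitory phosphate on tyrosine of Cdk1 and Cdk2. It had 183, 198 and 155 counts in KO and 176, 140 and 147 in WT, or 35.6, 37.6 and 35.0 CPM in KO against 36.9, 31.3 and 35.1 CPM in WT. The groups overlapped, with means of 36.1 ± 1.33 CPM in KO and 34.4 ± 2.85 CPM in WT (SD, n = 3 each). The log2 fold change of 0.07 (SE 0.12, adjusted p = 0.753) had a 95% interval from -0.17 to 0.30, and it was -0.000279 without WT library 02. These values rest on the deposited counts, which may hold only part of the Wee1 reads.

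Of 17 measured genes of the Cdk1 and Cdk2 inhibitory phosphorylation step, 0 were higher in edgeR's or DESeq2's test, 1 was lower in edgeR's and 16 were not called, with a median log2 fold change of -0.05. The called share was 5.88%, beside 17.3% of all tested genes, and at an unadjusted edgeR p under 0.05 the counts were 0 higher and 2 lower. The lower gene was Ccne2, cyclin E2, a Cdk2 activator, with 31, 40 and 37 counts in KO and 52, 52 and 49 in WT (-0.64, SE 0.22, adjusted p = 0.0317). This call ended in 5 of 6 fits that left out 1 library each (adjusted p 0.0533 to 0.153) and in DESeq2 (adjusted p = 0.152), and held without KO library 06. The second kinase of the step, Pkmyt1, and the opposing phosphatases Cdc25a, Cdc25b and Cdc25c had log2 fold changes between -0.13 and -0.05 and were not called. Cdk1 and Cdk2 were at -0.02 and -0.05.

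Of 15 measured genes for other proteins reported as Cables partners, 6 were higher, 1 was lower and 8 were not called (median log2 fold change 0.04). The called share was 46.7%, beside 17.3% of all tested genes, and this list too was chosen with earlier results known. Cdkn1a, the Cdk inhibitor p21, had 725, 709 and 599 counts in KO and 279, 230 and 204 in WT, with a log2 fold change of 1.37 (SE 0.08, adjusted p = 4.97e-25). Of the 14-3-3 genes, whose products bind phosphorylated proteins, Sfn (0.79, SE 0.16, adjusted p = 0.000102), Ywhab (0.22, SE 0.06, adjusted p = 0.004) and Ywhaq (0.20, SE 0.05, adjusted p = 0.00344) were higher. The other 14-3-3 genes of the list, Ywhae, Ywhag, Ywhah and Ywhaz, had log2 fold changes between 0.01 and 0.12 and were not called. Robo1, a guidance receptor, averaged 21.1 ± 3.26 CPM in KO and 14.2 ± 1.12 CPM in WT (0.56, SE 0.16, adjusted p = 0.00991), and its call ended without KO library 06 (adjusted p = 0.0902) and in DESeq2 (adjusted p = 0.0783). Trp53 and the lower Cdk17 belong to this list too. Ctnnb1 (0.04), Smad2 (-0.07) and Cdh2 (-0.50, adjusted p = 0.294) were not called.

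**Figure D4:**
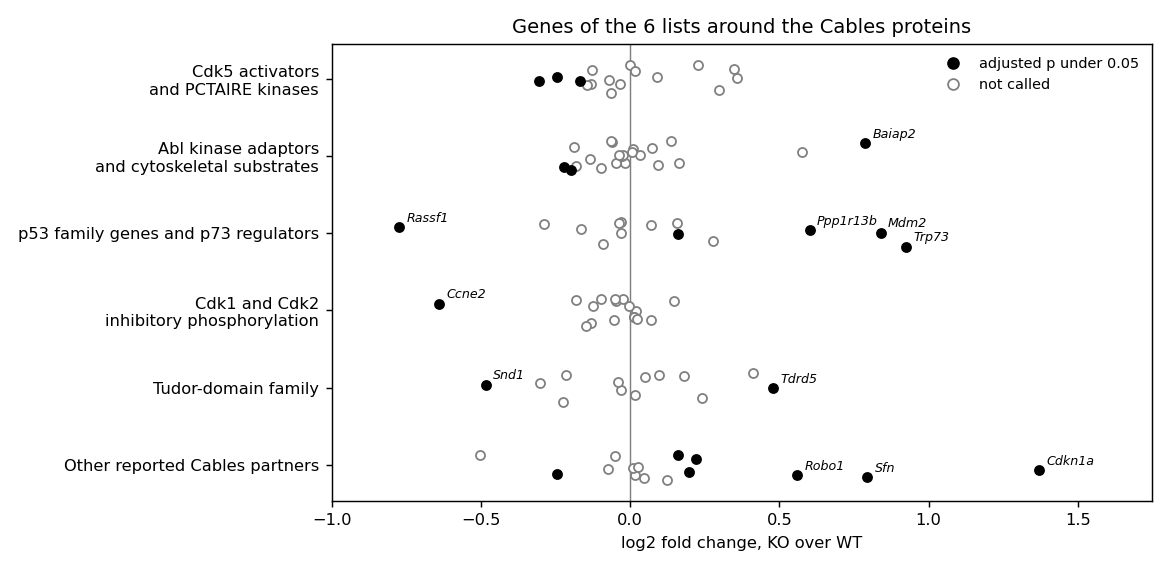
Log2 fold change, KO over WT, of every measured gene in the 6 lists of pathway genes, 1 point per gene, with vertical scatter only for legibility. Filled points passed an adjusted p under 0.05 in edgeR's fit, and Cdkn1a (1.37), Trp73 (0.93) and Mdm2 (0.84) lie farthest to the right.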

How the data were processed

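Total RNA was depleted of ribosomal RNA and sequenced in paired 36-base reads from a directional kit, per the labels' protocols. The authors deposited whole-number read counts per gene, not normalized, per the file headers. Their table also holds p-values, with FDR correction, and a signed fold, a score below 0 where KO is lower, from the authors' own test. The submitters' processing notes name mm10 and edgeR. No source used here gives the aligner, the counting program or its strand and multiple-mapping settings, so reads of genes that overlap, lie antisense or share sequence cannot be told apart. Another 18 columns of values per library were not used.

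Column names give the genotype and a library number (KO 04 to 06, WT 01 to 03), without the labels' replicate numbers. Counts were filtered with filterByExpr and fitted with edgeR 4.0.16 (robust quasi-likelihood, group as the only term) after TMM scaling (0.987 to 1.02). CPM use the TMM-scaled library sizes. SE is the log2 fold change divided by the square root of F. Exon lengths, identifiers and strands come from GENCODE M21, where 94.9% of the rows matched by symbol, and 91.1% of these had identical coordinates. Alternatives were DESeq2 1.42.0, other scaling factors, other filters, no robust estimation, transcript lengths for the ratios, the row Gm26917 left out (8.34% to 10.2% of counts), and each library left out in turn. The genes, lists and tests were chosen with earlier results of these data known. The text names the members, every called gene of a pathway or marker list, Rps21 and some uncalled genes next in role to the members, the last chosen after their values were seen.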

Additional observations from a re-analysis of the deposited data

How the results depend on the processing

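No paired analysis was possible because the columns of the table do not carry the replicate numbers of the labels. Genes called higher in KO numbered 943, and 498 in DESeq2, and genes called lower numbered 1059, and 646 in DESeq2. With 1 library left out these counts were 719 to 823 higher and 820 to 923 lower. Of the 9 genes, 1 was called higher throughout these fits, and 2 were called lower, or 1 to 2 with 1 library left out, where the Abl1 call could end. Over all pathway lists 11 genes were called higher, against 7 in DESeq2, and 8 lower, against 4 in DESeq2. The 6 lists held 16, 22, 14, 17, 13 and 15 measured genes, with Cdk2, Cdk17 and Trp53 in 2 lists each. Of all tested genes 17.3% were called in edgeR, so the pooled counts are not read as a result about the lists. With 1 library left out the pooled counts were 9 to 11 higher and 4 to 6 lower. The difference in the Cdk5r1 to Cdk5 ratio ran from -0.40 to 0.17 with 1 library left out, with both signs (0.05 without KO library 04, 0.17 without WT library 01). The Wee1 change turned to -0.000279 without WT library 02 and was at most 0.12 (without WT library 01). Of the fits of single members, 109 kept direction and side of the threshold, 2 lost a call (both Abl1) and 1 turned. Fits of Rps21 and the other called pathway genes kept theirs in 210 cases and lost a call in 42. The cause of the lower counts in DESeq2 was not tested, while leaving out a library leaves fewer samples. Tdrd7 fell below the count filter, and the standard error of Cdk5r1 (0.34 on the log2 scale) was larger than its change (0.23).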

Other observations

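Among 11593 other genes, those whose log2 CPM pattern over the 6 libraries lay nearest to that of Cables2, by root mean square distance after centring each gene on its WT mean, were Ndnf (1.08), Cox7a1 (1.54) and Nanog (1.61). Ndnf, a secreted neuron-derived factor, averaged 0.505 CPM in KO and 5.65 CPM in WT, with a log2 fold change of -3.52 (edgeR adjusted p = 7.81e-08). Cox7a1, a subunit of mitochondrial cytochrome oxidase, averaged 0.660 CPM in KO and 3.04 CPM in WT (-2.14, adjusted p = 0.00195). Nanog, a naive pluripotency factor, averaged 21.1 CPM in KO and 67.4 CPM in WT (-1.68, adjusted p = 3.74e-21). These 3 are the nearest by construction, and no test of their likeness was made.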
